A study of Homo sapiens with 66 samples.

Results

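Genes for RNA polymerase I, the enzyme that transcribes ribosomal DNA, were followed through the loss of Mediator subunits, CDK9 and BET proteins in the leukaemia line KBM7. The members were 10 listed genes: CD3EAP, POLR1A, POLR1B, POLR1C, POLR1D, POLR1E, TWISTNB, ZNRD1, RRN3 and UBTF. Their Ensembl identifiers were looked up in GENCODE release 29 and then in the deposited count table, and 8 of the 10 were found among its 13331 genes. ZNRD1 and RRN3 were without an entry and were not analysed here. All 8 measured members passed the low-count filter. With dTAG7 in the MED14-tagged line all 8 were called lower, as were 63.3% of all genes tested. CD3EAP fell most and POLR1D least, at -0.64 on the log2 scale beside a median of -0.69 over all genes.

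Transcripts were counted by 3' end sequencing of polyadenylated RNA in 66 libraries, 3 in each of 22 groups of line and treatment. KBM7, derived from chronic myeloid leukaemia, is near-haploid. In 9 engineered lines a degradation tag sits on CDK9 or on a Mediator subunit (MED14, MED10, MED12, MED28, MED31, MED6, MED26 or MED1), written in the labels as CDK9-dTAG and so on. Each tagged line received DMSO or 500 nM dTAG7, a compound that brings tagged proteins to the ubiquitin ligase receptor cereblon. The untagged cells, called wild-type, were given DMSO or dTAG7 at the same dose, 250 nM THAL-SNS-032, a degrader of CDK9, or 100 nM dBET6, a degrader of BET bromodomain proteins. All treatments lasted 6 h. Every tagged group shares the KBM7 background and differs from wild-type cells also by the engineering of the line. Whether a line is 1 clone is not given in the sources used here, and dTAG7 in a tagged line is called loss of the tagged protein although its amount was not measured in these files.

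RNA polymerase I makes the precursor of the large ribosomal RNAs in the nucleolus, and its output sets much of a growing cell's capacity to build ribosomes. POLR1A and POLR1B form the catalytic core, and POLR1C and POLR1D are assembly subunits that RNA polymerase III uses as well. POLR1E and CD3EAP, also named POLR1G, form a heterodimer on the enzyme, TWISTNB, also named POLR1F, is a stalk subunit, and ZNRD1, also named POLR1H, is a small zinc-binding subunit. RRN3 carries the polymerase to the promoter, and UBTF binds and bends ribosomal DNA. The genes themselves are transcribed by RNA polymerase II, the enzyme that Mediator, CDK9 and BET proteins serve. Ribosomal RNA was not analysed here.

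Promoter windows were read from RefSeq (GRCh38.p14), from 250 bases before to 50 bases after each annotated start, and 9 of the 10 members had at least 1 window, POLR1E being the one without. Both strands were searched for CACGTG (an E-box, the core motif bound by MYC with MAX), CCGGAAG (an ETS factor motif), TCTCGCGA and TATAAA. Of 35116 windows of this length, 7.26% held CACGTG, 10.3% CCGGAAG, 1.15% TCTCGCGA and 11.5% TATAAA. Among the members' windows, CACGTG was found in that of CD3EAP alone, once, 12 bases before the start. CCGGAAG was found in windows of POLR1B, POLR1C and RRN3, TCTCGCGA in that of POLR1C, and TATAAA in none. The windows of CD3EAP, the member whose transcript fell most with MED14 loss, POLR1D, which fell least, and POLR1C, which holds the most matches, are shown with the searched motifs in capitals. They lie at chr19:45406394-45406693 (plus strand), chr13:27620493-27620792 (plus strand) and chr6:43516839-43517138 (plus strand). In POLR1C the 3 matches to CCGGAAG include a pair that overlap on opposite strands.
CD3EAP: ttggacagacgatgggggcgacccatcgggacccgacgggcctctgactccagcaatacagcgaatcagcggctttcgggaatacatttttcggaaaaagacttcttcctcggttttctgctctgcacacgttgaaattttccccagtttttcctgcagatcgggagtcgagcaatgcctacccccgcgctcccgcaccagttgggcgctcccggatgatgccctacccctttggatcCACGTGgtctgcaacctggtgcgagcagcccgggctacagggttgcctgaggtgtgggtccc
POLR1D: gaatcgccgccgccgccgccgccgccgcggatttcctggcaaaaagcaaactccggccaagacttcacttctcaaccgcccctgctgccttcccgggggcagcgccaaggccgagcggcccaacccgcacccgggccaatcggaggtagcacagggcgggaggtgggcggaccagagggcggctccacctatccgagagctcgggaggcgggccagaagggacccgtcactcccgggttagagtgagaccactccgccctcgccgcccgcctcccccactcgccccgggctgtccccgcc
POLR1C: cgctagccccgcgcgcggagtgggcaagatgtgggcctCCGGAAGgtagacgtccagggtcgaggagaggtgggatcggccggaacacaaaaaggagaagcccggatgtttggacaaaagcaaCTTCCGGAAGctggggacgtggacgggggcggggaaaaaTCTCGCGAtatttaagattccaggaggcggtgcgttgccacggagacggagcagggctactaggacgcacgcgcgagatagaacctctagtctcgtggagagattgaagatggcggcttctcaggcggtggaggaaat
A match describes the letters of the window, not a bound site.

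Endogenous counts ran from 439261 to 4337368 per library (median 3016290.5) and spike-in counts from 10950 to 72684. Levels are given as CPM, counts scaled to a common library size, with that size taken from the spike-ins, which were added in equal amounts to the lysates, so that a fall in all transcripts stays visible. In bulk RNA, fewer cells and less RNA per cell cannot be told apart. TMM scaling, which sets the typical gene of each library equal, is given beside it and shows change relative to other genes. Of the 10 listed markers of a myeloid leukaemia line, 9 were above 0 in every DMSO library, among them the leukocyte marker PTPRC (230 to 423 CPM) and the myeloid factor SPI1 (9.34 to 24.8 CPM). MPO, a granule enzyme of myeloid precursors, was at 0 to 4.4 CPM. The T cell marker CD3E stayed at or below 3.7 CPM in DMSO and the B cell marker MS4A1 at or below 1.13 CPM. Library A of the MED6 line with dTAG7, library B of the MED12 line in DMSO and library C of the MED12 line with dTAG7 stood apart: a chi-square per degree of freedom over the counts was above 5 against both their replicates (16.2 and 20.2, 9.23 and 9.38, 5.22 and 6.36). No other library passed 5 against both, a threshold chosen after the values were seen.

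CD3EAP (ENSG00000117877, hg38 chromosome 19, 45406209 to 45410766, plus strand) ran from 139 to 224 CPM in the 30 DMSO libraries, with a median of 184. Wild-type cells held 218, 224 and 207 CPM in DMSO and 218, 210 and 204 CPM with dTAG7, so these groups overlapped. In the MED14 line it went from 164, 183 and 168 CPM in DMSO to 17.2, 24.6 and 19.6 CPM with dTAG7. The lowest DMSO library was thus far above the highest treated one. The log2 change was -3.12 ± 0.15 (SE), an 8.67-fold fall that left 11.5% of the DMSO level (edgeR, adjusted p = 5.66e-26). MED14 is the backbone that joins the head, middle and tail of Mediator.

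With MED10, a middle subunit, CD3EAP went from 214, 218 and 195 CPM to 65.3, 53.3 and 59.4 CPM. With MED12, part of the kinase module, it went from 183, 166 and 153 CPM to 66, 57.2 and 63.5 CPM. The log2 changes were -1.81 ± 0.13 (edgeR adjusted p = 6.19e-17) and -1.43 ± 0.13 (edgeR adjusted p = 3.97e-12). In the MED12 line the change was -1.44 without DMSO library B and -1.45 without dTAG7 library C, and was called in both cases. The treated libraries of these lines overlapped each other, and both groups lay clear of their own DMSO libraries. In the MED28 line, whose tagged protein is a head subunit, the values were 220, 207 and 194 CPM in DMSO and 108, 92.2 and 96.7 CPM with dTAG7. The change was -1.06 ± 0.12 (edgeR adjusted p = 7.54e-09).

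Smaller falls were called in the MED31 line, from 206, 221 and 191 CPM to 131, 125 and 136 CPM, and in the MED6 line, from 183, 159 and 165 CPM to 134, 124 and 107 CPM. The changes were -0.66 ± 0.12 (edgeR adjusted p = 0.000455) and -0.46 ± 0.12 (edgeR adjusted p = 0.00553). MED31 and MED6 belong to the middle and the head of Mediator. In the MED6 line the call was lost under TMM, at -0.17 ± 0.11 (edgeR adjusted p = 0.417), but not without dTAG7 library A, at -0.54. In the MED31 line it was lost with limma on the authors' loess-normalized values, at -0.66 (limma adjusted p = 0.0539). In the MED1 line (-0.20 ± 0.12) and the MED26 line (-0.11 ± 0.12) the change of CD3EAP did not pass the test, nor did it in wild-type cells with dTAG7 (-0.04 ± 0.12). In the MED1 line the treated libraries, at 156 to 173 CPM, all lay under the DMSO libraries, at 178 to 199 CPM, while those of the MED26 line overlapped.

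With CDK9 loss CD3EAP went from 139, 160 and 169 CPM to 6.47, 2.11 and 6.97 CPM, which rested on 47, 4 and 21 counts. The log2 change was -4.75 ± 0.17 (edgeR adjusted p = 1.19e-33). THAL-SNS-032 left 9.72, 9.27 and 16.1 CPM in wild-type cells (-4.25 ± 0.15) and dBET6 left 3.12, 4.54 and 6.71 CPM (-5.51 ± 0.17). The 3 strongest treatments also lowered most other genes, with a median log2 change over all genes of -2.93, -2.86 and -3.67. Under TMM the CD3EAP changes were -1.90 ± 0.18, -1.44 ± 0.15 and -1.94 ± 0.18, and that in the MED14 line was -2.44 ± 0.14.

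Ordered by mean CPM, wild-type DMSO stood first at 216 CPM and dBET6 last at 4.79 CPM. From wild-type DMSO down to the CDK9 line in DMSO (156 CPM) the library ranges of each pair of neighbouring groups overlapped. Gaps without overlap followed before the MED31 line with dTAG7 (131 CPM), the MED12 line with dTAG7 (62.2 CPM), the MED14 line with dTAG7 (20.5 CPM), THAL-SNS-032 (11.7 CPM) and the CDK9 line with dTAG7 (5.18 CPM). The other neighbours overlapped, among them the MED12 and MED10 lines with dTAG7 and the CDK9 line with dTAG7 and dBET6.

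**Figure D1:**
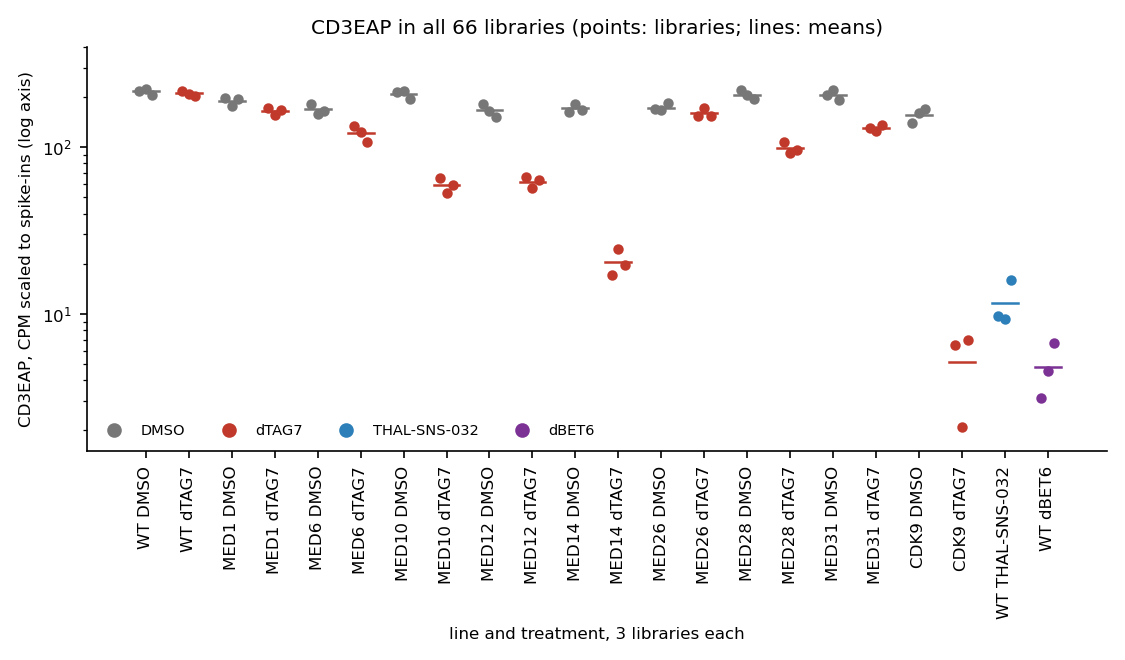
CD3EAP level in each of the 66 libraries, in CPM scaled to spike-ins on a log axis, by line and treatment (points are libraries, horizontal lines group means). The MED14 line with dTAG7 lies between 17.2 and 24.6 CPM, below the other Mediator lines and above the 3 treatments that target CDK9 or BET proteins.

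The exons of ERCC1, on the opposite strand, share 1593 of the 3661 exonic bases of CD3EAP but do not reach its 3' end, and whether counting used strand is not stated in the sources used here. ERCC1 changed by -0.94 ± 0.22 in the MED14 line (edgeR adjusted p = 0.000177) and by -0.25 ± 0.19 under TMM (edgeR adjusted p = 0.341). What reads of one add to the other was not tested.

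POLR1E, the partner of CD3EAP (ENSG00000137054, chromosome 9, 37485935 to 37503697, plus strand), went from 45.8, 47.7 and 45 CPM to 16.2, 11.1 and 11.8 CPM in the MED14 line. The log2 change was -1.78 ± 0.19 (edgeR adjusted p = 5.16e-12), and -1.09 ± 0.18 under TMM (edgeR adjusted p = 3.24e-06). In the MED10 line it went from 56.4, 51.9 and 50.1 CPM to 29.7, 31.8 and 31.5 CPM, a change of -0.76 ± 0.18. The groups did not overlap in either line. The partners therefore both fell, CD3EAP by -3.12 and POLR1E by -1.78 on the log2 scale with MED14 loss, and by -1.81 and -0.76 with MED10 loss. Whether the 2 genes differ was not tested, since the members were chosen with earlier results known.

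POLR1A, the largest catalytic subunit (ENSG00000068654, chromosome 2, 86020216 to 86106155, minus strand), went from 74.9, 80.3 and 77.7 CPM to 23, 28.9 and 28 CPM in the MED14 line. The change was -1.56 ± 0.13 (edgeR adjusted p = 4.39e-15). POLR1B, the second catalytic subunit (ENSG00000125630, chromosome 2, 112541915 to 112577150, plus strand), went from 51.6, 59.3 and 69.5 CPM to 13.2, 11.7 and 13.7 CPM. Its change of -2.20 ± 0.20 (edgeR adjusted p = 3.49e-14) came next after that of CD3EAP in this line. In neither gene did the groups overlap.

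POLR1B stood lowest of the members in the CDK9 line, at -5.00 ± 0.27, and with THAL-SNS-032, at -4.29 ± 0.24. In the CDK9 line it rested on 18, 0 and 5 counts with dTAG7, and the change was -5.83 without library A. CD3EAP was next in both comparisons, at -4.75 and -4.25. POLR1A changed by -3.38 ± 0.16 and -3.15 ± 0.15 there, closer to the median of all genes.

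POLR1C (ENSG00000171453, chromosome 6, 43509702 to 43562419, plus strand) and POLR1D (ENSG00000186184, chromosome 13, 27620742 to 27744237, plus strand) form the assembly heterodimer that polymerases I and III share. POLR1C went from 58, 51.9 and 47.9 CPM to 14.7, 17.2 and 16.1 CPM in the MED14 line, a change of -1.73 ± 0.23 (edgeR adjusted p = 1.82e-09). POLR1D went from 125, 146 and 151 CPM to 84.7, 100 and 88.2 CPM, a change of -0.64 ± 0.14 (edgeR adjusted p = 8.45e-05). The groups did not overlap for either gene, but POLR1D moved about as far as the median of all genes, -0.69. Under TMM its change was 0.04 ± 0.11 (edgeR adjusted p = 0.798), against -1.05 ± 0.19 for POLR1C.

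POLR1D stood highest of the members in 7 of the 12 comparisons. In the CDK9 line it went from 132, 133 and 146 CPM to 23.8, 23.2 and 23.9 CPM (-2.53 ± 0.16), while POLR1C went from 47.5, 42.1 and 46.3 CPM to 1.51, 3.69 and 1.66 CPM (-4.52 ± 0.32), on 11, 7 and 5 counts. Relative to other genes under TMM, POLR1D was higher there, at 0.31 ± 0.13 (edgeR adjusted p = 0.0443), and POLR1C lower, at -1.70 ± 0.32. This rise of POLR1D is one of share, since its spike-in scaled level fell.

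TWISTNB (ENSG00000105849, chromosome 7, 19695462 to 19709087, minus strand) went from 135, 124 and 139 CPM to 51.3, 60.3 and 52.8 CPM in the MED14 line, a change of -1.29 ± 0.13. UBTF (ENSG00000108312, chromosome 17, 44205033 to 44221626, minus strand) went from 268, 294 and 283 CPM to 123, 133 and 126 CPM, a change of -1.15 ± 0.11. Both passed the test (edgeR adjusted p = 4.14e-13 and 2.1e-13) with no overlap of the groups. UBTF, the DNA-binding factor among the measured members, thus stayed closer to the median of all genes than each subunit but POLR1D. With MED12 and MED28 loss UBTF changed by -0.09 ± 0.11 and -0.26 ± 0.11 and did not pass the test.

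**Figure D2:**
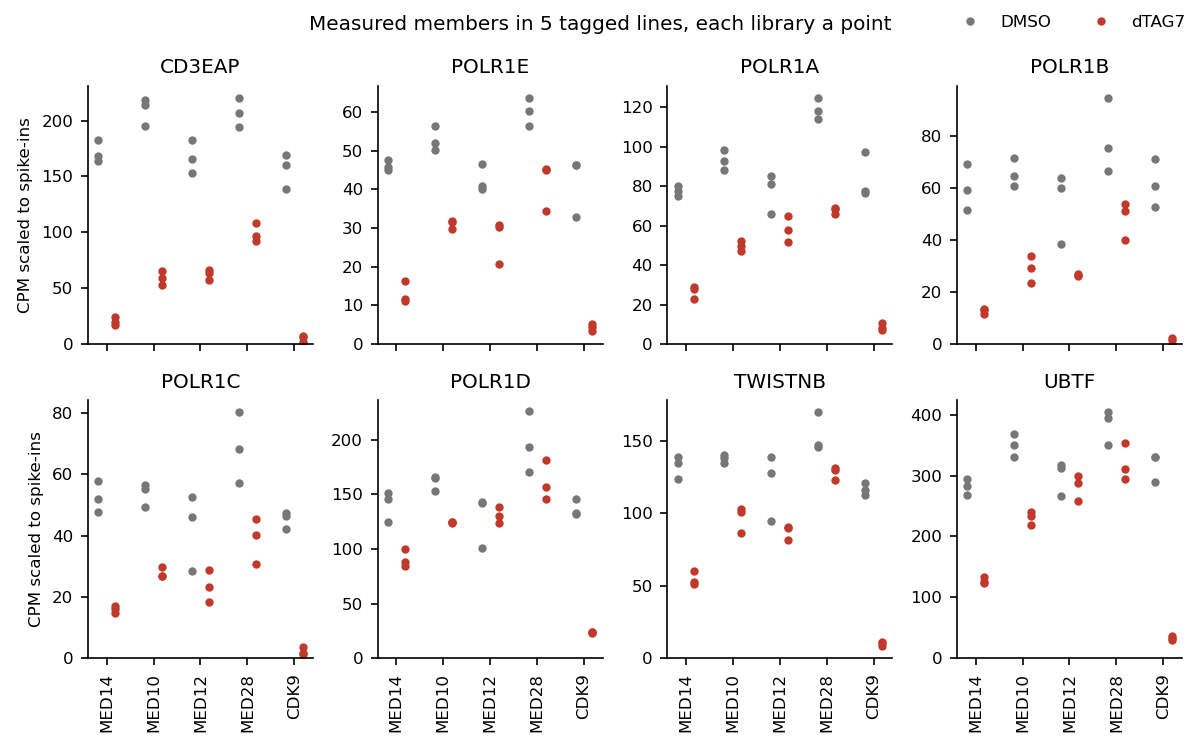
Levels of the 8 measured members in CPM scaled to spike-ins, in DMSO (grey) and with dTAG7 (red), in the MED14, MED10, MED12, MED28 and CDK9 lines, each point a library and each axis from 0. In the MED14 line CD3EAP fell from a range of 164 to 183 CPM to 17.2 to 24.6 CPM, and POLR1D from 125 to 151 CPM to 84.7 to 100 CPM.

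Counted over the 8 measured members, all 8 were called lower in the MED14 line, against 63.3% of all 12515 genes tested. Their median change was -1.65, and that of all genes -0.69. Under TMM 7 were called lower, against 16.6% of 12892 genes, with a median of -0.97 against 0.01. In the MED10 line all 8 were called lower as well, against 19.0% of all genes, with a median of -0.83 against -0.19. Under TMM 7 were lower there, against 10.0%, POLR1D being the exception. The call of POLR1D in the MED10 line, at -0.37 ± 0.14 (edgeR adjusted p = 0.0491), was lost on leaving out any 1 of the 6 libraries.

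In the MED12 line 6 members were called lower, against 3.40% of all genes: CD3EAP, POLR1A, POLR1B, POLR1C, POLR1E and TWISTNB. Under TMM 6 were lower, against 5.70%. POLR1B, at -1.03 ± 0.19, and POLR1C, at -0.90 ± 0.22, followed CD3EAP. In library B of this line in DMSO, which stood apart, POLR1B was at 38.5 CPM beside 64.1 and 60 CPM, and POLR1C at 28.6 beside 52.5 and 46.2 CPM. The count stayed at 6 without it, and was 2 without DMSO library A or dTAG7 library C, where CD3EAP and POLR1B kept their calls. With the 6 libraries of this line fitted alone it was 1, CD3EAP. No share of all genes was counted for the left-out and separate fits, so these drops cannot be read as particular to the members.

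In the MED28 line 5 members were called lower, against 4.07% of all genes, namely CD3EAP, POLR1A (-0.81 ± 0.12), POLR1C (-0.82 ± 0.20), POLR1B (-0.70 ± 0.17) and POLR1E (-0.54 ± 0.17). TMM gave 5 as well, against 4.34%. The count was 3 without DMSO library A or C and 2 without dTAG7 library C or with limma on the loess-normalized values, CD3EAP and POLR1A keeping their calls. For these fits, too, no share of all genes was counted. In the MED31 line CD3EAP was the 1 member called lower, against 2.61% of all genes, and under TMM, against 3.02%, it was again the 1 member called (-0.62 ± 0.11, edgeR adjusted p = 0.000188). The other 7 members changed by -0.41 to 0.01 there with spike-in scaling and were not called.

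In the MED6 line 5 members were called lower, against 18.4% of all genes: CD3EAP, POLR1A (-0.51 ± 0.12), POLR1B (-0.55 ± 0.18), TWISTNB (-0.34 ± 0.12) and UBTF (-0.51 ± 0.11). Under TMM edgeR called 0, against 3.66% of all genes, with 2 lower at an unadjusted p under 0.05, and limma on the authors' loess-normalized values called 2. For the unadjusted and limma counts no share of all genes was counted. Without dTAG7 library A, which stood apart, 2 were called with spike-in scaling, CD3EAP and UBTF. Without DMSO library A, B or C 3 were called in each case. The left-out fits have no share of all genes beside them either.

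No member was called in the MED1 line (0% of all genes lower, and 0.00776% under TMM), in the MED26 line (2.88%, and 1.40% under TMM) or in wild-type cells with dTAG7 (0% under both scalings). By edgeR at an unadjusted p under 0.05, 0, 2 and 0 members were lower in these comparisons, and 1, 1 and 0 under TMM. DESeq2 called 0, 1 and 0 members, POLR1A in the MED26 line being the exception, and limma on the authors' loess-normalized values called 0 in each. Shares of all genes at the unadjusted threshold or with these tools were not counted, so these counts have no background beside them. POLR1A went from 103, 95.9 and 87.7 CPM to 76.4, 70.6 and 74.5 CPM in the MED26 line, without overlap, at -0.37 ± 0.12 (edgeR adjusted p = 0.078). POLR1D, at -0.21 ± 0.14, went from 155, 151 and 162 CPM to 135, 138 and 132 CPM there, also without overlap, though its groups overlapped under TMM. How many of all genes lacked overlap was not counted. In the MED1 line the groups of POLR1A did not overlap either, as for CD3EAP.

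With CDK9 loss all 8 members were called lower, against 95.3% of all genes, with THAL-SNS-032 8 against 96.2%, and with dBET6 8 against 97.1%. These shares are near those of all genes. Under TMM 6 members were lower in the CDK9 line, against 27.0% of all genes, and POLR1D was higher, as were 21.1% of genes. With THAL-SNS-032 6 were lower under TMM, against 16.0%, and with dBET6 7, against 23.2%. The THAL-SNS-032 and dBET6 comparisons share the wild-type DMSO libraries. POLR1E, at -4.55 ± 0.23 with dBET6, was at -5.22 without library C.

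**Figure D3:**
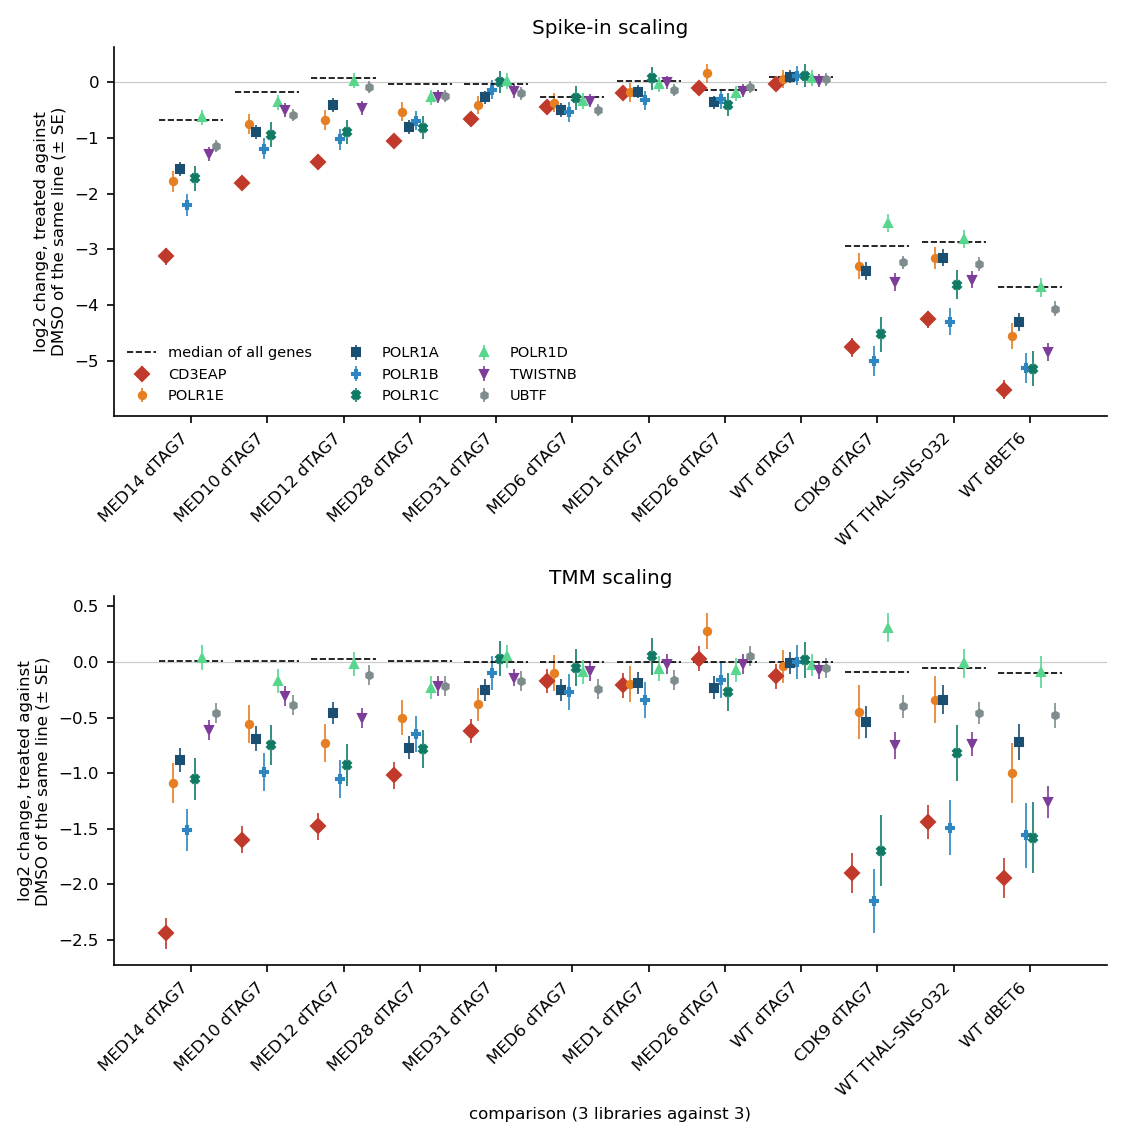
Log2 change (± SE) of the 8 measured members in the 12 comparisons of treated with DMSO libraries of the same line, with spike-in scaling (top) and TMM scaling (bottom); dashed lines are the medians of all genes tested. CD3EAP is at -3.12 in the MED14 line and stands lowest in 7 of 12 comparisons under each scaling, the 7 including wild-type cells with dTAG7, where it was not called.

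CD3EAP was then set against the other 7 measured members inside each library, as the log2 count of CD3EAP less the mean log2 count of the others, with 0.5 added to each count. Library scaling does not enter this value. The ratio had a mean of 0.89 in the MED14 line in DMSO (0.87, 0.97 and 0.82) and -0.71 with dTAG7 (-0.92, -0.47 and -0.75). It moved by -1.60 in this line, by -1.06 in the MED10 line, by -0.94 in the MED12 line, by -0.54 in the MED28 line and by -0.48 in the MED31 line. In these 5 lines the ranges of treated and DMSO libraries did not overlap. CD3EAP held 17.8, 18.6 and 17.1% of the members' counts in the MED14 line in DMSO and 5, 6.35 and 5.49% with dTAG7.

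The ratio moved by -0.99 with dBET6, -0.85 with THAL-SNS-032 and -1.31 with CDK9 loss, again without overlap. In the CDK9 line library B, with 4 CD3EAP counts and 0 POLR1B counts, so that its value depends on the 0.5 added, was at -1.45 beside -0.13 and 0.01, and the change was -0.85 without it. The ratio moved by -0.08 in the MED1 line, 0.09 in the MED26 line, -0.03 in the MED6 line and -0.10 in wild-type cells given dTAG7, and the groups overlapped. In the MED6 line the treated libraries were at 1.23, 0.54 and 0.46, the first being library A, and the change was -0.28 without it. With the other members' counts summed, the ratio moved by -1.86, -1.18, -1.17 and -0.67 in the MED14, MED10, MED12 and MED28 lines. It moved by -1.76 with CDK9 loss, -1.30 with dBET6 and -0.98 with THAL-SNS-032. These falls were larger than those with the mean log2 count. In the MED31, MED1, MED26 and MED6 lines and wild-type cells with dTAG7 it moved by -0.49, -0.08, 0.07, -0.03 and -0.09. All these ratios are a description and were not tested.

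**Figure D4:**
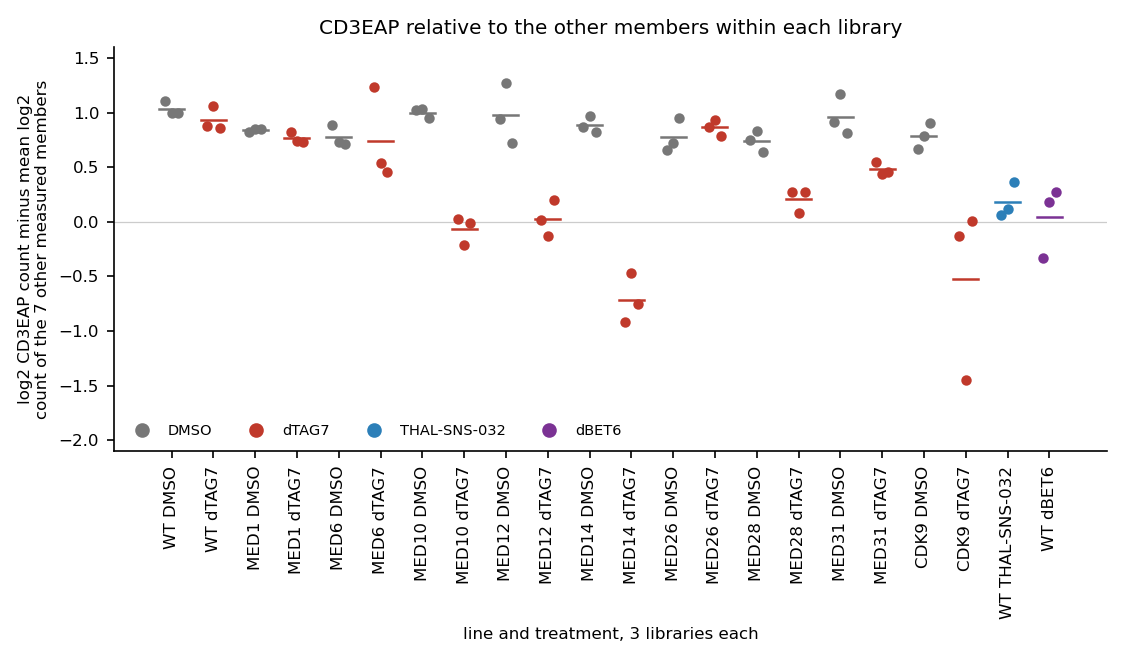
Log2 CD3EAP count less the mean log2 count of the other 7 measured members, within each of the 66 libraries (points) with group means (lines). DMSO means lie between 0.74 and 1.03, the MED14 line with dTAG7 is at -0.71, and the MED10 and MED12 lines with dTAG7 are at -0.06 and 0.03.

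Whether the tagged lines differed from wild-type cells in their response to dTAG7 was tested as the difference of the changes. For CD3EAP the difference was -3.08 ± 0.19 in the MED14 line, -1.77 ± 0.18 in the MED10 line, -1.40 ± 0.17 in the MED12 line and -1.03 ± 0.17 in the MED28 line. These passed the test (edgeR adjusted p = 4.4e-20, 3.23e-11, 1.45e-07 and 8.84e-05) and passed it under TMM, where they were -2.31, -1.47, -1.35 and -0.89. In the MED31 line the difference was -0.62 ± 0.17 (edgeR adjusted p = 0.0603) and in the MED6 line -0.43 ± 0.17 (edgeR adjusted p = 0.0848). The fall of CD3EAP in these 2 lines was thus called against DMSO but not against wild-type cells. Without MED6 dTAG7 library A the MED6 difference was -0.51 and was not called, and the MED12 difference was -1.41 without DMSO library B and -1.42 without dTAG7 library C, both called.

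Over the members, 8 differed in the MED14 line, against 57.1% of all genes, and 7 under TMM, against 10.3%. In the CDK9 line 8 differed, against 93.9%, and 6 under TMM, against 23.0%. In the MED10 line 7 differed, against 14.1%, and 4 under TMM, against 4.81%, which were CD3EAP, POLR1A, POLR1B and POLR1C. The call of TWISTNB in the MED10 line was lost on leaving out any 1 of 5 of the 12 libraries, 2 of the MED10 line and 3 of wild-type cells. In the MED12 line it was 2, against 1.62%, namely CD3EAP and POLR1B (-1.13 ± 0.25), and 4 under TMM, against 2.23%, with POLR1C and TWISTNB added. Without DMSO library B, POLR1A (-0.61), POLR1C (-1.23) and TWISTNB (-0.64) differed too with spike-in scaling. In the MED28 line it was CD3EAP and POLR1A (-0.89 ± 0.17), 2 against 1.82%, and 2 under TMM, against 1.40%. In the MED6 line POLR1A (-0.59 ± 0.17) and UBTF (-0.55 ± 0.15) differed, 2 against 10.9%. Without dTAG7 library A neither was called, at -0.40 and -0.45 (edgeR adjusted p = 0.156 and 0.0775). POLR1A was not called either without MED6 DMSO library C (-0.54), wild-type DMSO library C (-0.57) or wild-type dTAG7 library A (-0.57). Under TMM edgeR called 0 there, against 0.652%, with 0 at an unadjusted p under 0.05, and no other tool was run on this difference.

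Among the 8 Mediator lines, a joint test of the dTAG7 change called all 8 members, against 46.2% of all genes, with POLR1D at edgeR adjusted p = 0.0443 and CD3EAP at 4.32e-20. The call of POLR1D was lost without any 1 of 28 of the 48 libraries. Under TMM it called 6, against 12.4%, and left out UBTF (edgeR adjusted p = 0.0506) and POLR1D (0.727). The change of CD3EAP in the MED14 line lay below that in the MED10 line by -1.31 ± 0.20 (edgeR adjusted p = 9.2e-06) and, under TMM, by -0.84 ± 0.19 (edgeR adjusted p = 0.0226). Against the MED12 line the difference was -1.68 ± 0.20 and against the MED28 line -2.05 ± 0.19.

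Of the members, 6 fell further in the MED14 line than in the MED10 line, against 29.9% of all genes, 8 further than in the MED12 line, against 57.4%, and 7 further than in the MED28 line, against 49.9%. Against the MED12 line POLR1C was not called without MED12 DMSO library B (-0.61), MED12 dTAG7 library A (-0.69) or MED14 dTAG7 library A (-0.77). Under TMM the count was 1 (CD3EAP) against the MED10 line, where 0.326% of genes were called, 1 (CD3EAP) against the MED12 line, with 4.75%, and 2 (CD3EAP and POLR1B) against the MED28 line, with 3.72%. The MED14 line was also tested against the MED1, MED26, MED31 and MED6 lines. For CD3EAP the differences were -2.92, -3.01, -2.46 and -2.65 with spike-in scaling, each ± 0.19 and each called. Counts over the members for these lines are not reported here. All these tests share the MED14 libraries.

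Levels before dTAG7 were compared between the tagged lines and wild-type cells in DMSO. CD3EAP was lower in the CDK9 line, at 139, 160 and 169 CPM against 218, 224 and 207 CPM (-0.46 ± 0.12, edgeR adjusted p = 0.0281), the 1 member called there against 1.14% of all genes. Under TMM this was not called (-0.38 ± 0.11, edgeR adjusted p = 0.0587). In the MED12 line CD3EAP was the 1 member called lower, at 183, 166 and 153 CPM (-0.36 ± 0.12, edgeR adjusted p = 0.0349), against 4.42% of all genes and, under TMM, again the 1 member, against 5.70%. In the MED14 line UBTF was the 1 member called lower, at 268, 294 and 283 CPM against 347, 378 and 361 CPM, where 8.98% of genes were. UBTF was at -0.36 ± 0.11 there, and at -0.16 ± 0.09 under TMM, which was not called. The call of CD3EAP was lost on leaving out any 1 of 4 of the 6 libraries in the CDK9 line (-0.52 to -0.39) and of 5 of 6 in the MED12 line (-0.44 to -0.31), DMSO library B of that line among them. That of UBTF was lost for 3 of 6 (-0.39 to -0.33). These comparisons share the wild-type DMSO libraries.

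Other genes of the pathway were taken as 4 lists: the promoter factor SL1 with the terminator protein TTF1, subunits shared by all 3 polymerases, polymerase III subunits, and nucleolar cofactors of ribosomal DNA. In the MED14 line 6 of 6, 4 of 4, 10 of 11 and 6 of 6 measured genes were called lower with spike-in scaling, beside 63.3% of all genes, with medians of -0.99, -0.60, -1.36 and -0.83 beside -1.65 for the polymerase I members. Under TMM 2, 0, 8 and 3 were lower, beside 16.6% of all genes, with medians of -0.31, 0.08, -0.67 and -0.14 beside -0.97. POLR3GL, an alternative polymerase III subunit, was called lower with spike-in scaling, at -0.30 ± 0.13, and higher under TMM, at 0.39 ± 0.13, as were 13.4% of all genes. CD3EAP at -3.12 lay below every gene of the 4 lists. Among them the polymerase III subunit POLR3B changed by -2.24 ± 0.24.

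Within SL1, TAF1B (-1.80 ± 0.23) and TAF1D (-1.57 ± 0.14) were lowest and TAF1C (-0.62 ± 0.15) and TBP (-0.65 ± 0.21) highest. Among cofactors MYBBP1A (-1.73 ± 0.19) and the helicase DDX21 (-1.63 ± 0.10) were lowest. In the CDK9 line all genes of the 4 lists were lower with spike-in scaling, as were 95.3% of all genes. Under TMM 4 of 6, 0 of 4, 7 of 11 and 1 of 6 were lower, beside 27.0% of all genes. There 2 shared subunits, POLR2L (0.95 ± 0.13) and POLR2E (0.78 ± 0.13), and 3 cofactors, among them DDX21 (0.68 ± 0.07), were higher, beside 21.1% of all genes. TTF1 (-1.25 ± 0.15) and the deacetylase SIRT7 (-1.06 ± 0.18) were lower under TMM there.

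**Figure D5:**
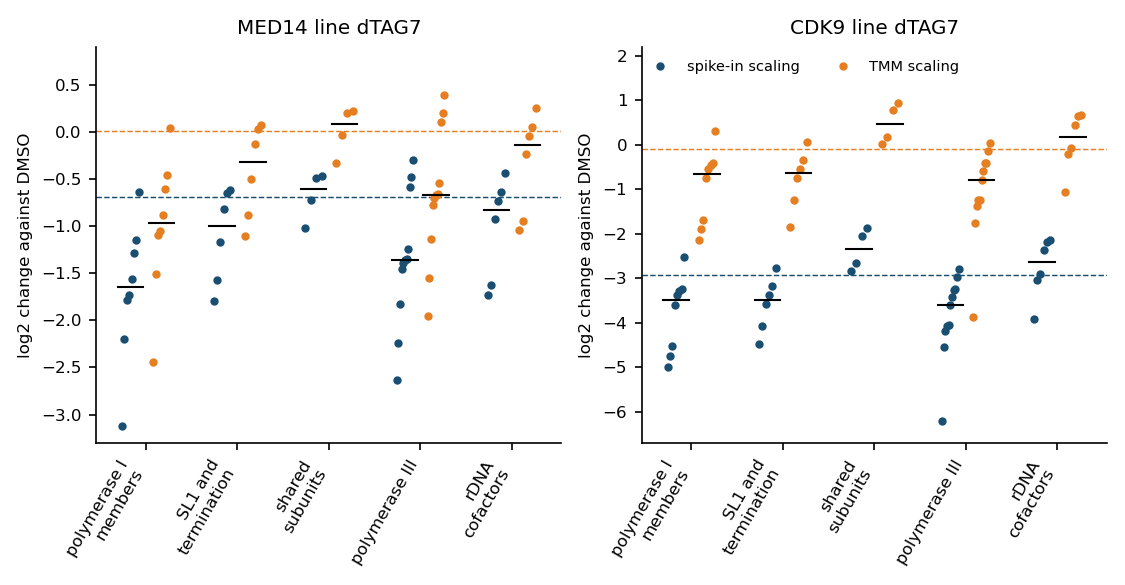
Log2 change against DMSO of each measured gene of the polymerase I members and the 4 pathway lists in the MED14 line (left) and the CDK9 line (right), with spike-in (blue) and TMM scaling (orange); black bars are list medians and dashed lines the medians of all genes. In the MED14 line the members' median is -1.65 and that of the shared subunits -0.60, beside -0.69 for all genes.

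Copies and antisense genes near the members were checked. On the strand opposite POLR1C, exons of XPO5 and YIPF3 share 348 and 129 of its 5550 exonic bases without reaching its 3' end. What their reads add to POLR1C was not tested. RRN3 itself was not analysed here. Its copy RRN3P3, whose reads a counter can share with RRN3, changed by -1.48 ± 0.32 in the MED14 line (edgeR adjusted p = 5.79e-05). AC003102.1, antisense to UBTF over 216 exonic bases, was near the floor, with a median of 4 counts over all libraries. It went the other way in the MED14 line, at 2.19 ± 0.59 (edgeR adjusted p = 0.001) from a mean of 1.01 to 4.85 CPM. UBTF itself was at 123 to 133 CPM in those libraries.

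Over the 22 group means of TMM log2 CPM, the genes most like CD3EAP among 10205 were GRWD1 (Pearson r of 0.984), GNL3 (0.982), RPUSD1 (0.974), METTL1 (0.972) and DHX33 (0.971). The group means share libraries and scaling, so this is a description. Of the members POLR1C reached 0.922, UBTF 0.92, POLR1E 0.917, POLR1B 0.91, POLR1A 0.908 and TWISTNB 0.857, while POLR1D was at -0.00458. METTL1 changed by -3.02 ± 0.21 in the MED14 line and GRWD1 by -2.06 ± 0.13, beside -3.12 for CD3EAP. In the MED31 line, where CD3EAP was the 1 member called, GRWD1 changed by -0.42 ± 0.11 and METTL1 by -0.57 ± 0.16.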

How the data were processed

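Polyadenylated RNA of 66 KBM7 libraries in 22 groups was sequenced from its 3' ends, and equal spike-in RNA (ERCC and SIRV) was added to the lysates, per the labels' protocols. The authors deposited raw counts for genes and spike-ins. Per the submitters' processing notes, bedtools 2.26.0, HTSeq 0.6.0, STAR 2.5.2b and hg38 were used, with no settings given. The deposited genes appear prefiltered, since their lowest total is 70 counts and none is detected in fewer than 20 libraries. A second table holds the authors' loess-normalized signal values, whose making is not given in the sources used here, and served in 1 alternative. All columns matched a sample by its title.

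Identifiers were named from GENCODE 29 (13297 of 13331 genes). Libraries within groups differed by more than sampling noise, so none was taken as a repeat of another. edgeR 4.0.16 (R 4.3.3) fitted 22 group means with 44 residual degrees of freedom after filterByExpr, with quasi-likelihood F tests, spike-in totals as library sizes (12515 genes tested) and TMM beside it (12892). A call is a Benjamini-Hochberg adjusted p under 0.05 over all genes tested. The SE is the absolute log2 change over the root of its F value. The labels describe triplicate wells, and p-values therefore reflect only the spread among them, which may be technical. Likeness was computed over genes averaging 5 CPM or more, with a prior count of 2. Scripts were tested on simulated data.

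The members, the 4 pathway lists and the tests were chosen with earlier results of these data known, so counts over members are described beside all genes and no test was run over the lists. The text names all 10 members, genes overlapping them or copied from them, up to 2 lowest and 2 highest genes of a list in the MED14 and CDK9 lines, and the 5 genes most like CD3EAP. Some genes that this rule or the marker lists hold are not reported here. Alternatives were leaving out each library, scaling by TMM or by median-of-ratios factors, 2 other filters, DESeq2 1.42.0, limma 3.58.1 on log2 of the loess-normalized signal plus 1, separate fits of each comparison, and a block for the replicate letter.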

Additional observations from a re-analysis of the deposited data

Results flagged for a closer look

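The values here are differences in the dTAG7 change between a tagged line and wild-type cells that passed edgeR's test (adjusted p under 0.05) with spike-in scaling and again under TMM. They are log2 differences with spike-in scaling, tagged line less wild-type cells. In the MED14 line these were CD3EAP at -3.08, POLR1B at -2.31, POLR1C at -1.84, POLR1E at -1.83, POLR1A at -1.65, TWISTNB at -1.31 and UBTF at -1.18. In the MED10 line they were CD3EAP at -1.77, POLR1B at -1.30, POLR1C at -1.06 and POLR1A at -0.99. In the MED12 line they were CD3EAP at -1.40 and POLR1B at -1.13, and in the MED28 line CD3EAP at -1.03 and POLR1A at -0.89. In the CDK9 line they were POLR1B at -5.10, CD3EAP at -4.71, POLR1C at -4.63, TWISTNB at -3.61, POLR1A at -3.46 and UBTF at -3.27. CD3EAP and POLR1B are the members listed in the MED14, MED10, MED12 and CDK9 lines with POLR1A and POLR1C in 3 of these 4. All 9 comparisons share the wild-type libraries.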

How the results depend on the processing

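Scaling moved the results most. POLR1D changed sign between scalings, given here where at least one of the values was called: with TMM it was at 0.31 in the CDK9 line and 0.04 in the MED14 line, with median-of-ratios factors at 0.41 and 0.08, and at 0.06 with dBET6 and 0.06 with THAL-SNS-032. Its differences from wild-type cells became 0.34 (CDK9 line) and 0.07 (MED14 line) under TMM, and those between the MED14 line and the MED1 and MED12 lines 0.10 and 0.06. The fall of CD3EAP in the MED6 line was not called under TMM (-0.17), median-of-ratios (-0.17), its 6 libraries alone (-0.47) or limma on loess-normalized values (-0.41), and that in the MED31 line was not called by limma (-0.66, adjusted p = 0.0539). The other CD3EAP calls against DMSO kept direction and side of the threshold under all alternatives run. Members called lower in the MED6 line numbered 0 under TMM, median-of-ratios and the 6 libraries alone and 2 by limma. They numbered 1 in the MED12 line with its 6 libraries alone, 1 in the MED26 line with its 6 libraries alone or DESeq2, 2 in the MED28 line and 0 in the MED31 line by limma, and 5 with THAL-SNS-032 under median-of-ratios. Leaving out 1 library gave 2 to 6 members in the MED12 line, 2 to 4 in the MED28 line and 2 to 6 in the MED6 line. Except for TMM, shares of all genes were not counted in these settings, so the counts have no background. The cause of these shifts was not tested. Leaving out each library for the line differences, levels in DMSO and the joint test was chosen after seeing the data. Of the 2 other filters, testing without one lost 1 call against DMSO, POLR1D in the MED10 line, and a minimum mean of 5 CPM lost none.

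The replicate letter did not pair the samples: correlations of the deviations of libraries with the same letter ran from -0.333 to 0.107. With the letter as a replicate block, 2 calls were lost, POLR1D in the MED10 line (-0.37, adjusted p = 0.0537) and POLR1E in the MED28 line (-0.54, adjusted p = 0.0537), and no other. Counts under 30 in at least 1 library of the CDK9, THAL-SNS-032 or dBET6 groups limit POLR1B, POLR1C, POLR1E, POLR1A, TWISTNB and CD3EAP there. In the MED14 line with dTAG7, library B was also under 30 for POLR1B (19 counts), POLR1C (28) and POLR1E (18).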
